A study of Mus musculus with 2 samples.

Results

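The spiral ganglion holds the primary auditory neurons that carry the signal of the hair cells to the brainstem. Chromatin accessibility was examined here at 8 genes that specify or mark these neurons: *Neurog1*, *Neurod1*, *Pou4f1*, *Isl1*, *Runx1*, *Ntrk2*, *Ntrk3* and *Calb2*. They were taken from 21938 protein-coding genes for this role and by no rule on measured values. A peak was assigned to a gene when its centre lay within 3 kb of any transcription start site (TSS) of the gene, in the gene body, or up to 10 kb upstream of it, by the GENCODE vM21 annotation of GRCm38. Peaks within 3 kb of a TSS are called promoter peaks. The rule took 51 of 77596 peaks in the peak list that GEO labels WT and 85 of 100431 in the one it labels Bmi1 KO.

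The assay was ATAC-seq, in which a transposase inserts sequencing adapters into open chromatin, so that read pileups mark accessible DNA. The organ of Corti, the sensory strip of the cochlea, was taken at postnatal day 2 from WT littermates and from mice of the FVB.129P2-Bmi1tm1Brn/MvlJ line after backcrossing to C57BL/6J. Bmi1 is a subunit of the Polycomb repressive complex PRC1, and the Bmi1-/- mice are homozygous for a germline targeted allele of its gene. Tissue of 10 mice was pooled for each genotype and gave 1 library, so no value has a replicate and no test between genotypes was possible. The names of all peaks under the WT label began with a prefix for the knockout, and those under the KO label with one for the wild type. The lists are therefore called WT-labelled and KO-labelled, the latter for the Bmi1-/- mice, and each direction below holds only if those labels are right.

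The genes are described in the order in which they act. Neurog1 is the basic helix-loop-helix factor that starts neurogenesis in the otic vesicle, and Neurod1 is its target, which carries neuroblasts through differentiation. Pou4f1 and Isl1 are homeodomain factors of differentiating sensory neurons, and Isl1 is also present in the prosensory epithelium. Runx1 is a Runt-domain factor found in a subset of type I spiral ganglion neurons and in blood progenitors. Ntrk2 and Ntrk3 encode TrkB and TrkC, the receptors of BDNF and neurotrophin 3, on which survival of these neurons depends. Calb2 encodes calretinin, a calcium-binding protein of another subset of type I neurons.

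The cell bodies of spiral ganglion neurons lie in the modiolus, outside the organ of Corti, while their fibres enter it. For its cultures the study describes removing the modiolus, and the ATAC-seq dissection is not described in that detail. Promoter peaks were found at 9 of 10 hair cell markers and 8 of 10 supporting cell markers in the WT-labelled list, and at 8 of 10 of each in the other list. For general neuron markers the counts were 9 and 11 of 15, for glia 6 and 7 of 10, for mesenchyme 6 and 7 of 10, and for endothelium 8 and 7 of 10. Blood and macrophage markers had promoter peaks at 7 of 10 genes in the WT-labelled list and at 2 of 10 in the KO-labelled list. Over all protein-coding genes 59.1% and 68.2% had one in the 2 lists. The shares for neuron, glia and mesenchyme markers lay near these, so their counts do not show that those cells were present. The part of these cells in the results at the identity genes was not tested. In bulk tissue, fewer cells of a type and less accessibility per cell cannot be told apart.

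DNA at 7 of the peaks is printed here, because these are the peaks on which the results turn. The first 3 windows lie at or beside promoter peaks of *Neurog1*, *Neurod1* and *Pou4f1* that were called in the KO-labelled list only. The other 4 lie at peaks of *Isl1*, *Runx1*, *Ntrk2* and *Calb2* that were called in both lists. All are read from the GRCm38 genome on the strand of the gene, 5′ to 3′. In *Neurog1*, *Neurod1* and *Isl1* the capitals mark matches to searched motifs, in *Pou4f1* and *Runx1* CpG dinucleotides, and in *Ntrk2* and *Calb2* exact copies of a repeated unit.
Neurog1, chr13:56252181-56252380, minus strand: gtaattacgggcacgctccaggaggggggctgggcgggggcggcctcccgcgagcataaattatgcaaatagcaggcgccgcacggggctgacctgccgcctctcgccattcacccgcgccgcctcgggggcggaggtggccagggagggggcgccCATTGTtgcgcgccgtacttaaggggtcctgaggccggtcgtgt
Neurod1, chr2:79454407-79454607, minus strand: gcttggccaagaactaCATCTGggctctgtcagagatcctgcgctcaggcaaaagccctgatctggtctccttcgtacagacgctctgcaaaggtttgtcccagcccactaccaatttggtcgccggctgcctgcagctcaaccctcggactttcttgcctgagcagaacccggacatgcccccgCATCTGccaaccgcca
Pou4f1, chr14:104465463-104465663, minus strand: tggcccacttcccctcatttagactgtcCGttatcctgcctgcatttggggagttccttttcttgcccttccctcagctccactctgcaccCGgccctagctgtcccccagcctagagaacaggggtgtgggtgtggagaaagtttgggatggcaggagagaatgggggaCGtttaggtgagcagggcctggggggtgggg
Isl1, chr13:116302679-116302974, minus strand: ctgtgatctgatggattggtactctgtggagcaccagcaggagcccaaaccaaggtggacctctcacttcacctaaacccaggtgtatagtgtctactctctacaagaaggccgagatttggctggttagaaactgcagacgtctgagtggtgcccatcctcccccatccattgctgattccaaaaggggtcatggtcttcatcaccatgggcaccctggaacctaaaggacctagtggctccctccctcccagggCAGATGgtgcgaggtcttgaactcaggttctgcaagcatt
Runx1, chr16:92697459-92697716, minus strand: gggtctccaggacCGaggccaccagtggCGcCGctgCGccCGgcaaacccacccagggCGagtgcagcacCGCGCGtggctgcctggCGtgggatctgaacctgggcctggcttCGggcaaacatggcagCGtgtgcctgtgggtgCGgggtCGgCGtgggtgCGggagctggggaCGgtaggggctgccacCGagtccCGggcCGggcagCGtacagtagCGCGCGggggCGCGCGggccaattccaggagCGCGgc
Ntrk2, chr13:58912507-58912771, plus strand: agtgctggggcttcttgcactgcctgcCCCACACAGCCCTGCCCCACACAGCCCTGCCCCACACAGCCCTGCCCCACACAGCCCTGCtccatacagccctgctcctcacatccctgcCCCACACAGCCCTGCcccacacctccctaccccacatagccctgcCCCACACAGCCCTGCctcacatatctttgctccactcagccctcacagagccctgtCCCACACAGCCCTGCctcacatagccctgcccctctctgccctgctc
Calb2, chr8:110145934-110146134, minus strand: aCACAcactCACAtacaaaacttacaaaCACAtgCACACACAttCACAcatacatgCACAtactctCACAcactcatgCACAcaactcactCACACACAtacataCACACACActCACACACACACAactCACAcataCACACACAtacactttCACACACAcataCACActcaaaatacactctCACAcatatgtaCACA
The *Neurog1* window is the 200 bases before the RefSeq start, lies mostly upstream of the peak and does not include its summit, which is in the first exon. It holds 1 match to the SOX motif ACAATG, read as CATTGT. The *Neurod1* window, which is coding sequence, holds 2 matches to the proneural E-box CAGATG, both read as CATCTG, and the *Isl1* window holds 1. The *Runx1* window is 74.4% G or C and carries 29 CpG dinucleotides in 258 bases, whereas the *Pou4f1* window carries 3 in 201 bases. The *Ntrk2* window holds 7 exact copies of a 15-base unit and no CpG, and the *Calb2* window holds 24 copies of CACA and no CpG.

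Promoter peaks were found at 5 of the 8 genes in the WT-labelled list, namely *Isl1*, *Runx1*, *Ntrk2*, *Ntrk3* and *Calb2*, beside 59.1% of all protein-coding genes. In the KO-labelled list they were found at 7 of 8, all but *Calb2*, beside 68.2% of all genes. The genes with a promoter peak in both lists numbered 4 of 8, beside 53.0%. *Neurog1*, *Neurod1* and *Pou4f1* had a promoter peak in the KO-labelled list only, which is 3 of 8 beside 15.2% of all genes. *Calb2* had one in the WT-labelled list only, which is 1 of 8 beside 6.10%. With 8 genes, the exact 95% binomial intervals of the shares ran from 24.5% to 91.5% in the WT-labelled list and from 47.3% to 99.7% in the other, so the shares were not distinguishable from the background or from each other at this number of genes.

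A gene with many start sites offers more room for a promoter peak. The windows of the 8 genes covered 6.0 kb in *Neurog1*, *Neurod1* and *Calb2*, 8.63 kb in *Pou4f1*, 12.3 kb in *Isl1*, 14.2 kb in *Runx1*, 20.1 kb in *Ntrk2* and 67.2 kb in *Ntrk3*, beside a median of 8.82 kb over all genes. Among the 7535 genes whose windows covered at most 6200 bp, 18.4% had a promoter peak in the KO-labelled list only and 7.83% in the WT-labelled list only. All 8 identity genes had at least 1 CpG-rich start, defined as at least 50% G or C and an observed-to-expected CpG ratio of at least 0.6 within 250 bp. Of the 11995 genes of this class, 80.7% had a promoter peak in the WT-labelled list, 91.6% in the other list and 14.4% in the KO-labelled list only.

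**Figure D1:**
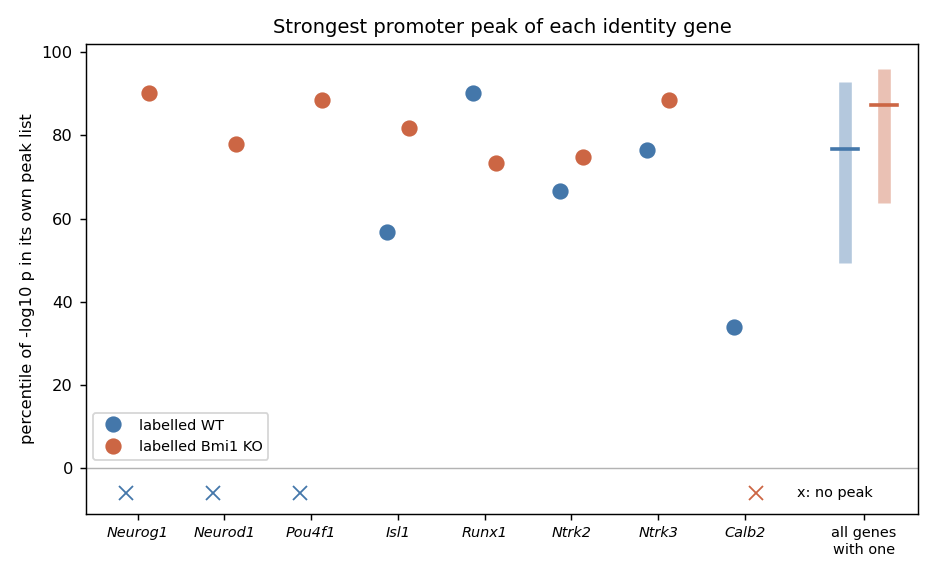
Percentile of the strongest promoter peak of each identity gene by -log10 p within its own list (y axis), for the WT-labelled list (blue) and the KO-labelled list (orange), with a cross where no promoter peak was listed. At the right, lines mark the medians over all genes with such a peak (76.8 and 87.3) and bars their quartiles. *Neurog1*, *Neurod1* and *Pou4f1* have points in the KO-labelled list only and *Calb2* in the WT-labelled list only.

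Peak strength was compared through the rank of -log10 p within each list, since the lists differ in depth. For genes with a promoter peak, the strongest lay at a median percentile of 66.7 over 5 identity genes in the WT-labelled list, beside 76.8 over all genes with one. In the KO-labelled list it lay at 81.9 over 7 genes, beside 87.3. The identity genes above the median of all genes numbered 1 of 5 and 3 of 7. The top promoter peak had the higher rank in the KO-labelled list at 6 of 8 genes, where absence from a list counted as lowest, and at 68.6% of all genes that had one in at least 1 list. The exceptions were *Runx1*, at the 90.3 percentile in the WT-labelled list and the 73.4 percentile in the other, and *Calb2*.

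All peaks of the identity genes were shallow, as was the median peak of each whole list. Between 14 and 23 reads covered the summits in the WT-labelled list, with a median of 18, and between 16 and 28 in the KO-labelled list, with a median of 20. Over all peaks the median pileups were 19 and 22. Fold enrichment, the pileup over the local background with 1 read added to each, ran from 2.05 to 3.04 and from 1.87 to 3.21. Its medians were 2.51 and 2.32, beside 2.46 and 2.32 over all peaks, where the highest values were 24.8 and 22.2. A q-value under 0.05 was reached by 27 of 51 peaks and 51 of 85 peaks, beside 52.4% and 62.8% of all peaks. None reached a -log10 q of 5 in either list. By gene, 0 of the 8 identity genes thus had a promoter peak of that strength in either list. Of all protein-coding genes 4.17% and 17.6% had one, and 8 genes are too few to tell 0 from these shares.

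*Neurog1* had no peak in the WT-labelled list and 2 in the KO-labelled list. Its promoter peak at chr13:56251736-56252251 had its summit 51 bases downstream of the TSS, in the first exon. There 26 reads (exact 95% Poisson interval 17.0 to 38.1, counting error only) lay over a background of 8.32, giving a fold enrichment of 2.9, a -log10 q of 3.34 and the 90.2 percentile. In the WT-labelled list the same fold over its commonest background of 6.32 reads would take 20.2 reads, and the lowest pileup called there was 13. The fold is known only from the list in which the peak was called, and the background of the other list at this site is not known. The part of depth in the absence was therefore not tested. The other peak, at chr13:56258774-56259166, lay 6782 bases upstream, with 24 reads, a fold of 2.52 and the 73.9 percentile. Both peaks stood in DNA rich in CpG, with 15 and 18 CpG dinucleotides in the 201 bases around the summit.

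*Neurod1* had 1 peak in the KO-labelled list and none in the WT-labelled list. The peak at chr2:79454323-79454653 had its summit 2244 bases downstream of the TSS in the coding exon, and 23 reads covered it over a background of 8.04. Its fold enrichment was 2.65, its -log10 q 2.33 and its percentile 78.0. It lay within 3 kb of starts of *Cerkl* and *Gm26755* as well, so its assignment to *Neurod1* is not unique. No other *Neurod1* peak was present in either list, and the DNA within 250 bp of its start was 59.2% G or C with a CpG ratio of 0.846.

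*Pou4f1* had 3 peaks in the KO-labelled list and none in the WT-labelled list. The strongest by -log10 p, at chr14:104471766-104472253, lay 3861 bases upstream of the gene and was covered by 27 reads, with a fold of 2.87 and the 90.4 percentile. The peak at chr14:104465403-104465678 lay 198 bases upstream of an internal start, with 25 reads, a fold of 2.87 and the 88.6 percentile. The third, at chr14:104467451-104467670, lay 402 bases downstream of the main start, with 24 reads, a fold of 2.52 and the 73.7 percentile. At these folds the WT-labelled list would need at least 17.4 reads over its commonest background, where its lowest called pileup was 13. The limits given for *Neurog1* apply here too, and the part of depth was not tested.

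*Isl1* had 1 peak in the WT-labelled list and 3 in the KO-labelled list. The peak in both lists lay in an intron near an internal noncoding start, at chr13:116302672-116303052 with 18 reads and a fold of 2.59 under the WT label, and at chr13:116302741-116303045 with 20 reads and a fold of 2.32 under the KO label. Its percentile was 56.8 in the first list and 44.0 in the second. The start of the protein-coding transcripts had a peak in the KO-labelled list only, at chr13:116309395-116309854, with 24 reads, a fold of 2.71 and the 81.9 percentile. A further peak of that list lay 4254 bases upstream, with 23 reads and the 75.1 percentile. When only the starts of protein-coding transcripts were used, 4 of the 8 identity genes had a promoter peak in the WT-labelled list (*Runx1*, *Ntrk2*, *Ntrk3* and *Calb2*), beside 55.5% of all genes. In the KO-labelled list 7 of 8 had one, beside 65.9%, and *Isl1* joined *Neurog1*, *Neurod1* and *Pou4f1* in having one there only, beside 16.9%. *Runx1*, the fifth transcription factor, had promoter peaks in both lists under this setting too.

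*Calb2* held 5 peaks in the WT-labelled list and 4 in the KO-labelled list. Its single promoter peak, chr8:110168405-110168867 in the WT-labelled list, lay 606 bases upstream of the start and was weak, with 19 reads over a background of 7.62, a fold of 2.32, a -log10 q of 1.15 and the 33.9 percentile. The strongest peak under the WT label lay in an intron at chr8:110163472-110163741, with 23 reads and the 84.3 percentile. It stood over repeated sequence by the measure given below. The strongest under the KO label lay in an intron at chr8:110159209-110159487, with 24 reads and also the 84.3 percentile. A coding-exon peak at chr8:110149254-110149501 reached the 70.8 percentile and a peak 3871 bases upstream the 17.8 percentile, both under the WT label. Peaks at chr8:110142671-110143001 and 9699 bases upstream reached the 10.1 and 23.4 percentiles under the KO label. The peak in both lists was intronic, with 18 reads and a fold of 2.44 at chr8:110145929-110146314 and 22 reads and a fold of 2.49 at chr8:110145963-110146227.

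**Figure D2:**
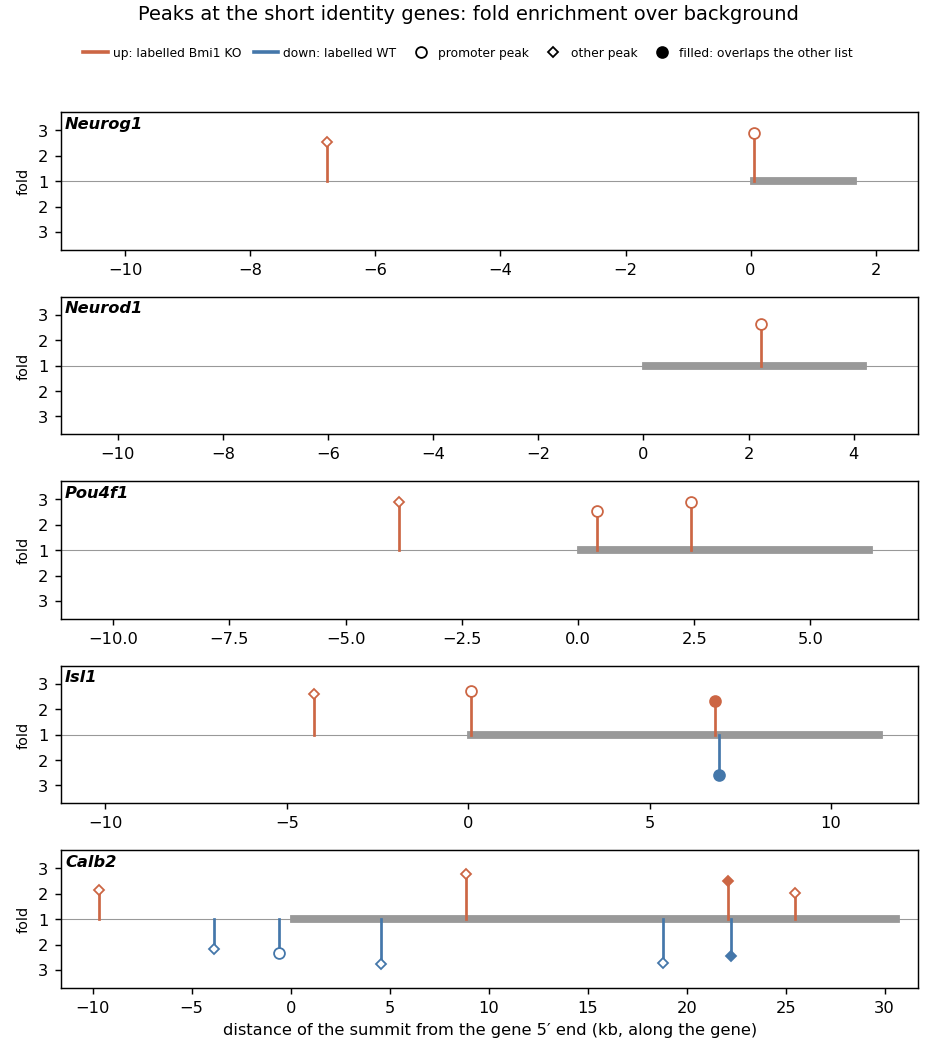
Peaks of the 5 shorter genes by distance of the summit from the gene 5′ end (x axis, kb) and fold enrichment over background (y axis, from 1), with the KO-labelled list above the line and the WT-labelled list below it. Grey bars are gene bodies, circles promoter peaks, diamonds other peaks, and filled symbols overlap the other list. *Neurog1*, *Neurod1* and *Pou4f1* have symbols above the line only, and 1 *Isl1* and 1 *Calb2* site is filled on both sides.

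*Runx1*, *Ntrk2* and *Ntrk3* held 45 of the 51 peaks in the WT-labelled list and 72 of the 85 in the KO-labelled list. Their gene bodies span 224684, 327402 and 562054 bp. Per 100 kb of gene and upstream region they held 4.26, 5.33 and 2.97 peaks under the WT label and 8.52, 7.41 and 4.72 under the KO label. The density was thus higher under the KO label at each of the 3 genes. Over the genome the KO-labelled list held 1.29 times as many peaks as the WT-labelled list, and at the identity genes 1.67 times as many. When the lists were cut to the same number of strongest peaks, the identity genes held 51 and 67. Whether the ratio of 1.67 differs from 1.29 was not tested. Introns held 78.4% and 78.8% of the summits of all identity genes in the 2 lists.

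*Runx1* held 10 peaks in the WT-labelled list and 20 in the KO-labelled list. The peak in both lists lay just upstream of the proximal promoter, whose start is at chr16:92697328. Under the WT label it spanned chr16:92697367-92697659 with its summit 231 bases before that start, 22 reads, a fold of 3.04 and the 90.3 percentile, which made it the highest fold of any identity gene peak in that list. Under the KO label it spanned chr16:92697266-92698020 with its summit 288 bases before the start, 24 reads, a fold of 2.51 and the 73.4 percentile. The KO-labelled list held 2 further promoter peaks, at chr16:92695501-92695809 with 23 reads and the 62.9 percentile and at chr16:92696703-92697000 with 20 reads and the 23.2 percentile. No peak of either list lay within 3 kb of the distal promoter, whose starts are at chr16:92826149 and chr16:92825778 and are not CpG-rich.

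The strongest intronic peak of *Runx1* under the KO label lay at chr16:92605759-92606836, with 28 reads, a fold of 3.21 and a -log10 q of 4.49, the highest of all identity gene peaks. The nearest peak of the WT-labelled list, chr16:92606957-92607238, began 120 bases beyond its end and had 20 reads and the 81.0 percentile. Another intronic peak under the WT label, chr16:92762645-92763041, had 21 reads and the 85.8 percentile and no peak of the other list within 1 kb. Under the KO label chr16:92621209-92621512 had 26 reads and the 89.5 percentile. Of all *Runx1* peaks, 1 in each list overlapped the other list.

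*Ntrk2* held 18 peaks in the WT-labelled list and 25 in the KO-labelled list. Near its start the lists shared 1 peak by an overlap of 31 bases, chr13:58806811-58807161 with 20 reads and a fold of 2.64 under the WT label and chr13:58806488-58806841 with 19 reads and a fold of 2.04 under the KO label, with summits 250 bases apart. A second promoter peak under the WT label, chr13:58807506-58807705, had 18 reads and the 35.3 percentile. It lay 349 bases from a promoter peak under the KO label, chr13:58808055-58808748, with 24 reads and the 74.9 percentile. The third promoter peak under the WT label, chr13:58869936-58870281, stood near an internal start with 17 reads and the 40.1 percentile. Accessibility was thus called at the main promoter region of *Ntrk2* in both lists, at adjoining positions.

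Inside the gene 2 more *Ntrk2* peaks were shared. At chr13:58905596-58905872 and chr13:58905739-58906013 there were 18 and 16 reads, with folds of 2.59 and 1.88. At chr13:58912456-58912901 and chr13:58912492-58912857 there were 20 reads in each list, with folds of 2.87 and 2.32, over the 15-base repeat printed above. Further strong peaks were at chr13:58965906-58966161 and chr13:59080999-59081351 under the WT label, each with 20 reads, and at chr13:59089476-59089675, chr13:59115228-59115570 and chr13:58948317-58948545 under the KO label, with 25, 25 and 24 reads. Of these 5, chr13:58965906-58966161 had a peak of the other list within 1 kb, at 868 bases.

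*Ntrk3* held 17 peaks in the WT-labelled list and 27 in the KO-labelled list, and 3 and 7 of them were promoter peaks by its 19 starts. The strongest promoter peak in the WT-labelled list, chr7:78190755-78191195, had 20 reads, a fold of 2.77 and the 76.5 percentile, and lay near the 3′ end of the gene, by the start of a short transcript. It overlapped chr7:78190759-78191049 in the other list, with 17 reads, a fold of 1.99 and the 6.15 percentile. The strongest under the KO label, chr7:78189706-78189964, had 25 reads, a fold of 2.87 and the 88.6 percentile. At the cluster of protein-coding starts, between chr7:78577783 and chr7:78578408, the KO-labelled list held chr7:78577241-78577449, with 26 reads and the 64.7 percentile. The WT-labelled list held chr7:78574856-78575079 with 21 reads and the 46.0 percentile and chr7:78575911-78576387 with 19 reads and the 14.0 percentile in that region, and none of these 3 overlapped a peak of the other list. All 3 also lay within 3 kb of a start of *Gm39038*, and all but chr7:78574856-78575079 within 3 kb of one of *Gm9885*. Their assignment to *Ntrk3* is therefore not unique.

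The remaining promoter peaks of *Ntrk3* were found under the KO label. These were chr7:78569979-78570213 (39.6 percentile), chr7:78622567-78622899 (87.6), chr7:78624004-78624203 (52.3) and chr7:78658227-78658616 (69.3). Outside promoters the strongest under the WT label were chr7:78300907-78301203 with 21 reads and the 87.8 percentile and chr7:78743208-78743467 with 20 reads and the 81.0 percentile, and under the KO label chr7:78652941-78653209 with 23 reads and the 78.0 percentile. The 3 other shared sites had 15 reads each under the WT label, at chr7:78494168-78494367, chr7:78680931-78681130 and chr7:78747222-78747421, and 20 reads each under the KO label at chr7:78494098-78494394, chr7:78680790-78681008 and chr7:78747219-78747502.

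**Figure D3:**
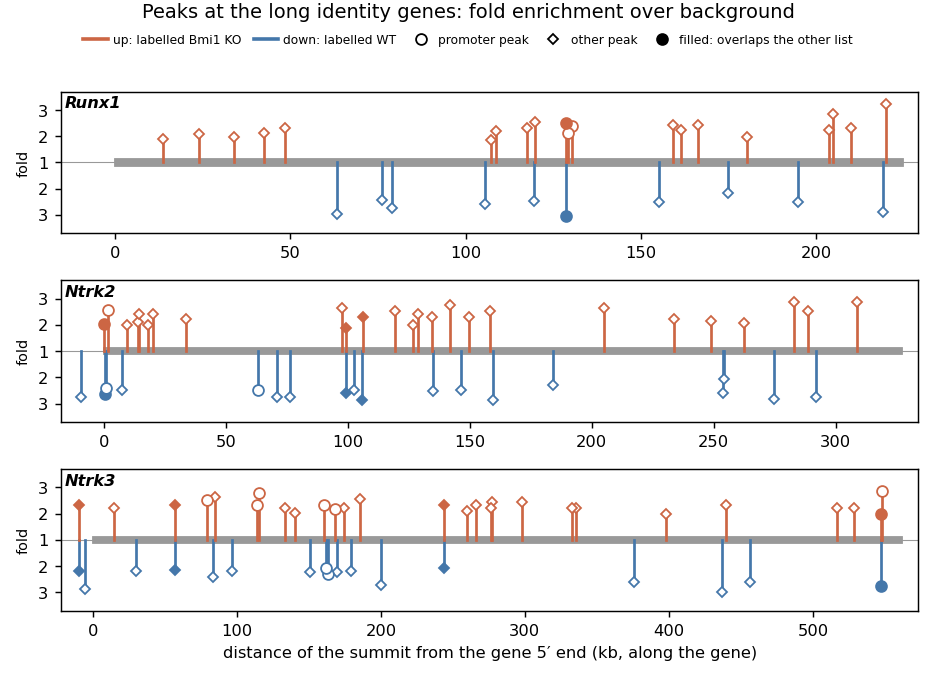
Peaks of *Runx1*, *Ntrk2* and *Ntrk3* by distance of the summit from the gene 5′ end (x axis, kb) and fold enrichment over background (y axis, from 1), with the KO-labelled list above and the WT-labelled list below the line. Symbols are as for the shorter genes. The filled symbols, 8 on each side, are the shared sites, and most intronic peaks are open.

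The lists shared 10 peaks at the identity genes by an overlap of at least 1 base. These were 19.6% of the 51 peaks in the WT-labelled list (exact 95% binomial interval 9.82% to 33.1%) and 11.8% of the 85 in the other list (5.79% to 20.6%). Over peaks of all protein-coding genes by the same rule the shares were 28.9% and 21.9%. At promoters 4 of 9 and 4 of 18 identity gene peaks were shared, beside 48.8% and 36.6%. Outside promoters 6 of 42 and 6 of 67 were shared, beside 15.4% and 12.1%. Except for the share of all 85 peaks, whose interval lay below 21.9%, the intervals included the background, and many peaks of 1 gene are not independent of each other. Promoter peaks, which were shared more often, made up 18 of these 85 peaks but 25830 of 64488 over all genes. The part of this mix in the lower share of the 85 was not tested. Of the peaks that did not overlap, 6 of 41 (14.6%) and 8 of 75 (10.7%) had a peak of the other list within 1 kb, beside 19.4% and 16.4% over all genes.

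At the 10 shared sites the summit reads over local background were compared as a ratio of the KO-labelled list to the WT-labelled list. The ratio ran from 0.696 at the 3′ *Ntrk3* site to 1.13 at another *Ntrk3* site. At *Isl1* it was 0.873 (0.439 to 1.75), at *Runx1* 0.797 (0.428 to 1.49) and at *Calb2* 1.01 (0.515 to 1.99), with exact 95% intervals that take the background as known. All 10 intervals included 1, so no difference was detectable at this depth. The fold enrichment was higher under the WT label at 6 of 10 sites, beside 52.6% of all overlapping pairs, and the median ratio of fold enrichments was 0.861, beside 0.987 over all pairs.

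**Figure D4:**
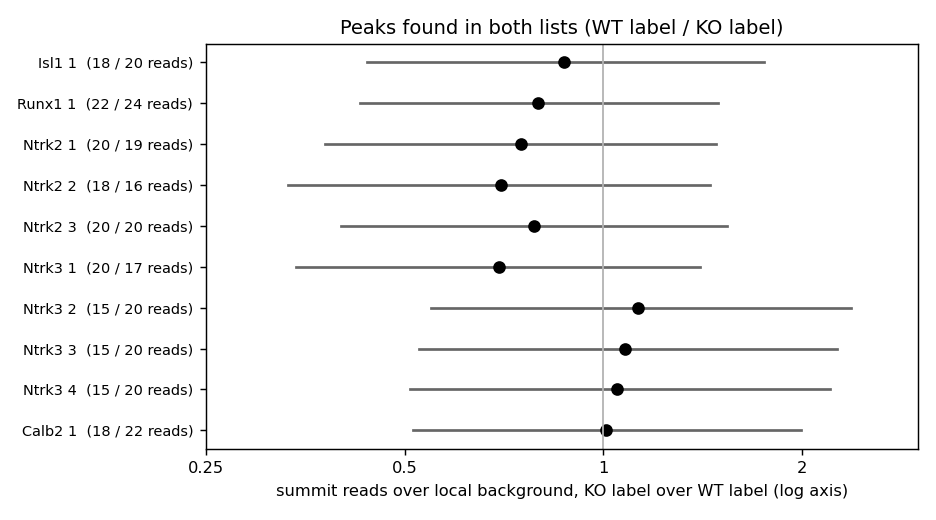
Ratio of summit reads over local background, KO-labelled list over WT-labelled list (x axis, log scale), at the 10 sites of identity genes found in both lists, with exact 95% intervals as bars and the reads in each list beside the names. All bars cross the line at 1.

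Shared peaks differed in sequence. The share of distinct 6-base words in the 201 bases around the summit measures repetition, and a value under 60% was taken as repeated sequence. By this measure 1 *Ntrk2* site and the *Calb2* site were repeats in both lists, with 46.9% and 49.0% distinct words at *Ntrk2* and 35.7% and 41.8% at *Calb2*, whereas the other 8 sites had at least 85.2%. These were 2 of the 6 shared sites outside promoters. Unshared peaks over repeats were chr8:110163472-110163741 at *Calb2* (38.3%) and chr13:58953099-58953320 at *Ntrk2* (46.9%) under the WT label. Under the KO label there was chr13:58904111-58904415 at *Ntrk2* (43.4%). Over all peaks outside promoters, 8.92% of the shared and 3.11% of the unshared peaks of the WT-labelled list were repeated sequence, and 8.93% and 3.00% in the other list. Reads from repeats can be placed wrongly by an aligner, and the part of this in the shared and unshared repeat peaks was not tested.

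Motifs of factors active in otic neurons were searched on both strands within 100 bp of every summit. The proneural E-box CAGATG, the site of Neurog1 and Neurod1, was found at 12 of 51 summits (23.5%) in the WT-labelled list and 10 of 85 (11.8%) in the KO-labelled list, beside 16.6% of all summits in each list. The E-box CAGCTG was found at 2 and 11 summits (3.92% and 12.9%), beside 13.1% and 13.5%. The SOX motif ACAATG was found at 9 and 7 summits (17.6% and 8.24%), beside 8.47% and 8.36%, and the ISL1 motif CTAATG at 6 and 5 (11.8% and 5.88%), beside 5.28% and 5.45%. Most identity gene peaks lay outside promoters (42 of 51 and 67 of 85). Over all summits outside promoters the shares were 18.4% and 18.3% for CAGATG and 13.3% and 13.6% for CAGCTG. They were 9.53% and 9.27% for ACAATG and 5.93% and 6.16% for CTAATG. The POU4 motif TAATTAAT was found at 1 summit, the *Ntrk3* peak chr7:78680790-78681008 under the KO label, beside 0.268% and 0.214% of all summits.

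The remaining motifs were found in the following numbers. The RUNX motif TGTGGT was found at 5 and 12 summits, beside 17.1% and 16.9% of all summits, and the EBF palindrome CCCNNGGG at 5 and 6, beside 9.54% and 9.89%. The GATA motif AGATAA was found at 5 and 5 summits, beside 6.04% and 5.84%, and the AP-1 motif TGANTCA at 4 and 4, beside 5.12% and 5.24%. TTCAGCACC, a part of the RE1 element bound by the neuronal repressor REST, was found at 0 and 0, beside 0.271% in each list. Matches of different motifs were counted separately where they shared bases. Overlapping peaks of the 2 lists share sequence and were counted in each, and a match says nothing of whether a factor was bound.

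The neurotrophin pathway around TrkB and TrkC was represented by 15 genes of ligands, receptors and adaptors. A promoter peak was present at 13 of them (86.7%) in each list and at 11 (73.3%) in both. *Bdnf*, the TrkB ligand, lay at the 87.8 percentile under the WT label and 96.7 under the KO label. *Ntf5*, which encodes neurotrophin 4, lay at 96.1 and 36.3. The adaptors *Frs2* and *Shc1* lay at 56.8 and 63.1 under the WT label and at 98.8 and 96.8 under the KO label, and *Kidins220*, a Trk scaffold, at 91.2 and 92.8. Thus *Ntf5* ranked higher under the WT label and *Frs2* and *Shc1* under the KO label, in 1 library each.

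Paralogues of the 8 genes had promoter peaks at 7 of 12 (58.3%) in each list and at 5 (41.7%) in both. The shares over all genes were 59.1%, 68.2% and 53.0%, as above. *Runx2* lay at the 89.8 and 92.4 percentiles under the WT and KO labels. *Runx3* had one in the WT-labelled list only, at the 76.1 percentile, and *Isl2* and *Calb1* in the KO-labelled list only, at 97.9 and 91.4. *Neurod4*, *Neurod6* and *Neurog3* had none in either list.

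Other regulators of otic neurons had promoter peaks at 13 and 14 of 15 genes, and 12 in both. *Sox2*, which is also a supporting cell gene, lay at the 94.8 and 97.1 percentiles, and *Casz1* at 94.2 and 96.6. *Gata3*, a regulator of auditory neurons and hair cells, lay at 84.9 and 92.0. Markers of spiral ganglion subtypes had promoter peaks at 10 and 13 of 14 genes (71.4% and 92.9%), beside the same shares of all genes. All 10 of the WT-labelled list were also in the other. Among them *Lypd1* lay at 98.3 and 36.1, *Grm8* at 78.9 and 66.2, and *Smad3* at 29.5 and 90.9, and *Th* had no promoter peak in either list.

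**Figure D5:**
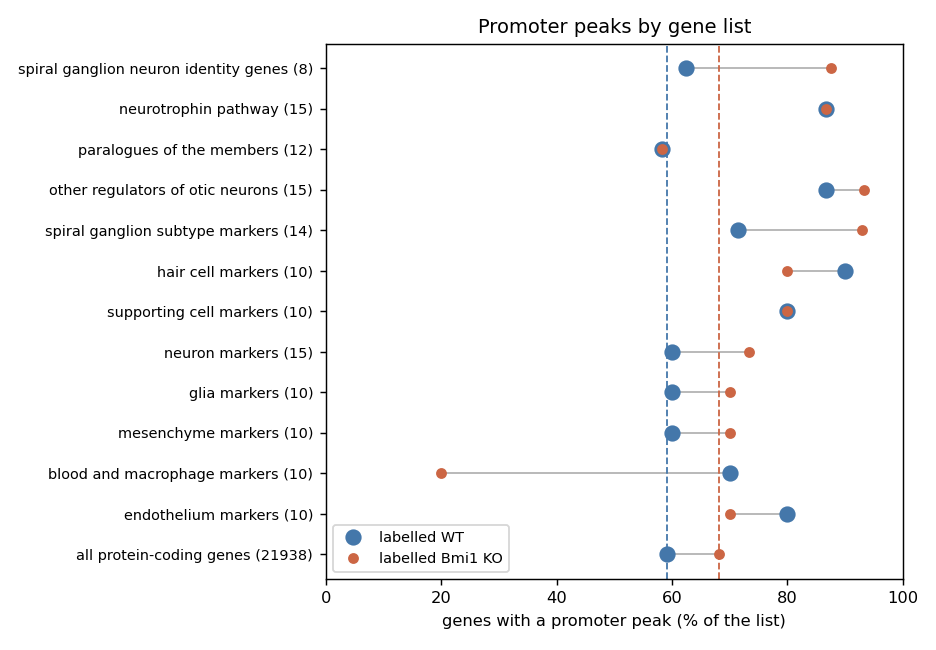
Share of genes with a promoter peak (x axis, percent) in the WT-labelled list (blue) and the KO-labelled list (orange) for each gene list, with the number of genes in parentheses. Dashed lines mark all protein-coding genes, 59.1% and 68.2%. The identity genes stand at 62.5% and 87.5%, and blood and macrophage markers have 7 and 2 of 10 genes.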

How the data were processed

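ATAC-seq peak lists of 2 libraries, 1 per genotype and each from 10 pooled mice, were analysed. Per the study's methods and the submitters' processing notes, reads were trimmed, checked with FastQC, aligned to mm10 with BWA and called with MACS2, and HOMER is also named; versions and thresholds are not given in the sources used here. The deposited lists give each peak's fold enrichment, -log10 p and -log10 q, and a score that was not used. All peaks had a -log10 p of at least 2. Total reads are not in these lists, and depth was read from the peaks: the whole-number pileup at each summit was solved from fold and p (tolerance 0.002 in -log10 p), which succeeded for 100% of peaks. The commonest background was 6.32 reads in the WT-labelled list and 8.04 in the KO-labelled list, and the lowest pileups called over it were 13 and 15. Peaks on unplaced sequence (230 and 237) were left out.

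The calculations used Python 3.11.15, pandas 2.3.3, scipy 1.17.1, pysam 0.24.0 and samtools 1.23.1, and were tested on simulated data. Positions are 1-based in GRCm38, the assembly of mm10, with GENCODE vM21 genes. Identity genes and gene lists were chosen with earlier results of these data known. All peaks of *Neurog1*, *Neurod1*, *Pou4f1*, *Isl1* and *Calb2* were described, and for *Runx1*, *Ntrk2* and *Ntrk3* the promoter peaks, the shared peaks and the 3 strongest of each list. Of the other lists, the 3 genes with the strongest promoter peak in each peak list and those with none were eligible to be named; the values of 2 of these genes are not reported here. No test between genotypes was made. Intervals cover counting error only. Alternatives changed the threshold, list size, windows, annotation, overlap rule and ranking.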

Additional observations from a re-analysis of the deposited data

How the results depend on the processing

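Under 67 alternatives, 56 values stayed within 1.5 times the reported count or within the 95% interval of the reported share. These margins are wide at such small numbers. The change from 6 to 4 genes and the lower shares given below count as within them. At -log10 q of at least 1.3 the identity gene peaks fell from 51 to 27 in the WT-labelled list and from 85 to 51 in the other, and the promoter peak of *Calb2* was lost. At -log10 q of at least 5 the numbers of genes with a promoter peak and of peaks were 0 in both lists, and no share could be given. The E-box CAGATG was found at 22 summits within 100 bp and at 46 within 250 bp. With the same number of strongest peaks from each list, 51 and 67 peaks were left, and the genes with promoter peaks remained 5 and 7. With promoters of 1 kb, 4 genes had a promoter peak under the WT label, without *Ntrk3*, and 6 under the KO label, without *Neurod1*. With RefSeq genes or with starts of protein-coding transcripts only, the numbers were 4, without *Isl1*, and 7. When strength was taken as pileup over the commonest background, the strongest promoter peak was higher under the KO label at 4 of 8 genes in place of 6. The shares of peaks found in both lists, 19.6% and 11.8%, were 11.1% and 5.88% at -log10 q of at least 1.3, 11.8% and 7.06% when each peak had to overlap by 50%, and 17.0% and 9.76% without peaks in repeats, the last chosen after seeing the data. The shares over all genes were not computed under these settings. Whether the lower shares are particular to the identity genes was therefore not tested. In the regions around the genes, with settings also chosen after seeing the data, 30 and 33 peaks fell to 11 and 20 at -log10 q of at least 1.3 and to 0 at 5. No paired analysis was possible because each genotype has 1 library. Depth limits all of these values, since no identity gene summit had over 28 reads.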

Other observations

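The sequence around the identity genes was also examined, up to 100 kb to each side or to the region of the next protein-coding gene, 924 kb in all. It held 30 peaks in the WT-labelled list and 33 in the KO-labelled list, a ratio of 1.10. The genes themselves held 51 and 85, a ratio of 1.67, and the whole lists had a ratio of 1.29. These ratios rest on few peaks and have no interval, and whether they differ was not tested. Of these outer peaks 4 of 30 and 4 of 33 overlapped a peak of the other list. Over all peaks 19222 of 77596 and 18547 of 100431 did. Over peaks outside the promoters of any transcript 7971 of 51593 and 7940 of 67633 did. No outer peak was listed in the 100 kb upstream of *Isl1* in either list. Downstream of *Pou4f1* there were 2 peaks under the WT label, the stronger at chr14:104391118-104391370 with the 92.1 percentile, and 0 under the KO label. The strongest outer peaks under the KO label were chr16:92564526-92564801 beyond *Runx1*, with the 92.2 percentile, chr13:58742616-58742830 upstream of *Ntrk2*, with the 91.4 percentile, and chr13:56270974-56271234 upstream of *Neurog1*, with the 90.5 percentile, and none of these 4 overlapped the other list.

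Among the cell type markers, blood and macrophage genes had a promoter peak in the WT-labelled list only at 6 of 10, beside 6.10% of all genes, and in the KO-labelled list only at 1 of 10, beside 15.2%. *Csf1r*, the macrophage growth factor receptor, lay at the 70.8 percentile, *Laptm5* at 48.3 and *Itgam* at 48.2, all under the WT label only. Their -log10 q was 1.72, 1.33 and 1.32, and it was lower at the other genes found under the WT label only. Under the WT label the median percentile of the blood and macrophage list was 40.1, beside 76.8 over all genes with a promoter peak. *Klf1*, an erythroid factor, lay at 28.3 and 73.5 under the WT and KO labels, and *Tyrobp* at 15.8 under the KO label only. *Gata1* and *Ptprc* had no promoter peak in either list. Among neuron markers *Map2* lay at 99.0 and 98.5, *Rbfox3* at 75.1 and 90.8 and *Syt1* at 56.8 and 93.4, and *Nefl* lay at 70.8 under the WT label with no promoter peak under the KO label, while *Elavl4* and *Gap43* had no promoter peak in either list. Of the 15 neuron markers, 2 had a promoter peak in the WT-labelled list only, beside 6.10% of all genes. In the KO-labelled list only, 4 had one, beside 15.2%.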
